A study of Mus musculus with 23 samples.

Results

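The 10 genes described here are Tfap2a, Tfap2b, Foxd3, Sox9, Ednrb, L1cam, Ncam1, Gap43, Mcam and Cdh19, which are known from the neural crest and from immature Schwann cells (SCs). They were chosen by name with earlier results of these data known, and the study itself names Tfap2a among genes induced by crush. Counts of these genes beside the shares of all genes are therefore descriptions, not a test of the set. All 10 were found by gene symbol among the 43068 genes listed in the crush libraries and the 22880 listed in the iKO libraries. Total RNA of mouse sciatic nerves (SNs) was sequenced in 2 experiments. In the crush experiment, SNs of wild-type C57bl6 mice at 3 days post crush (dpc, n = 4 nerves) were sequenced. Beside them were the uninjured nerves of the other side (contralateral, n = 4) and nerves described as uncrushed surgery control (uncrushed, n = 3). The mice with a crush were males of 2 months, and age and sex are not given for the uncrushed group. In the iKO experiment, nerves were taken 3 months post tamoxifen (mpT) from P0-CreERT2 -/+ mice that were Dicer1 flox/flox (Dicer iKO) or Dgcr8 flox/flox (Dgcr8 iKO), with n = 3 each. Each mutant had its own controls (n = 3 each), which were P0-CreERT2 -/-, carried the same 2 floxed alleles and also received tamoxifen. These mice were of the C57bl6 background, of either sex, and were injected at 8 to 10 weeks of age. The CreERT2 transgene directs recombination to myelinating SCs while the whole nerve was sequenced, and the mutant nerves had been preselected by their altered morphology.

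SCs descend from neural crest cells by way of SC precursors and immature SCs, which either form myelin or ensheathe small axons. After a nerve lesion, mature SCs give up the myelinating state and again express a number of genes of the immature stage, and other crest genes stay silent in most adult nerve cells. The 10 genes cover transcription factors of the crest (Tfap2a, Tfap2b, Foxd3, Sox9), a receptor that crest cells need for migration (Ednrb), adhesion molecules (L1cam, Ncam1, Mcam, Cdh19) and a growth-cone protein (Gap43). Dicer and Dgcr8 act in the making of microRNAs, Dgcr8 as part of the microprocessor in the nucleus and Dicer on the precursors that leave it.

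Promoter sequences of the genes that moved most are shown first, because Ednrb and Mcam rose in every comparison of a crushed or mutant nerve with its control, while Tfap2a and Foxd3 had the largest rises of the transcription factors after crush. Each is a RefSeq window on GRCm38.p6 of 250 bases before and 50 bases after a transcription start, written 5′ to 3′ on the gene's own strand. The windows are chr14:103843652-103843951 on the minus strand (Ednrb), chr9:44134408-44134707 on the plus strand (Mcam), chr4:99656049-99656348 on the plus strand (Foxd3) and chr13:40733746-40734045 on the minus strand (Tfap2a). Capitals mark matches to an AP-2 motif (GCCNNNGGC) or to a full cAMP response element (CRE, TGACGTCA), both of which read the same on either strand.
Ednrb: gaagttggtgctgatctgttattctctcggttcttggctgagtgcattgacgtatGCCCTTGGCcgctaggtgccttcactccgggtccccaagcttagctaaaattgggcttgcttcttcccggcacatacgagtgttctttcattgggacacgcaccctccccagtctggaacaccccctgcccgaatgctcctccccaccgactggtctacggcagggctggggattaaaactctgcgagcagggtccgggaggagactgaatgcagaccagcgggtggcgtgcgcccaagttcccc
Mcam: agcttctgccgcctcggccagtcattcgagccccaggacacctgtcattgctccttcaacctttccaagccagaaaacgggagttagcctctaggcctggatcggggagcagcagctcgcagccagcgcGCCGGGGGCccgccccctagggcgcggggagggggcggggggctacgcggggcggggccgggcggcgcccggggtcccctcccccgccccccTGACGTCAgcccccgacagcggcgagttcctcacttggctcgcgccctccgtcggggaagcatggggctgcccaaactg
Foxd3: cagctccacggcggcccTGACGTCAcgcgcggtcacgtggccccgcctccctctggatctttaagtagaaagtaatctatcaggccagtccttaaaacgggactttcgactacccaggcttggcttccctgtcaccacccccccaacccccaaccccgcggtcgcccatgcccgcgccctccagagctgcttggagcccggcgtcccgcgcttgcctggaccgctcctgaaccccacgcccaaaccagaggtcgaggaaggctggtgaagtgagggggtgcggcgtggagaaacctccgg
Tfap2a: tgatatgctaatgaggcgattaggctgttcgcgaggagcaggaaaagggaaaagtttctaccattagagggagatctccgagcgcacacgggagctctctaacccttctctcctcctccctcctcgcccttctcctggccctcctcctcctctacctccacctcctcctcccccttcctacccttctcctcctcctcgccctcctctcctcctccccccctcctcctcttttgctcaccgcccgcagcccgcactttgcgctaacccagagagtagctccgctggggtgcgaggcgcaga

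Of the 10 genes, 6 had such windows, 8 windows in all, and Sox9, Ncam1, Gap43 and Cdh19 had none. The AP-2 motif, which AP-2 proteins such as those of Tfap2a and Tfap2b are known to bind, was found at bases 56 to 64 of the Ednrb window and at bases 130 to 138 of the Mcam window, that is in 2 of 8 windows and in 16.6% of all 32851 promoter windows. A full CRE was found at bases 222 to 229 of the Mcam window and at bases 18 to 25 of the Foxd3 window, against 1.79% of all windows. None of the 8 windows (0 of 8) held an AP-1 motif (TGANTCA, in 7.81% of all windows), a SOX motif (AACAAT, 10.7%), a TATA box (TATAAA, 13.6%) or an EGR motif (GCGTGGGCG, 0.612%), searched on both strands. An E-box (CANNTG) was in 5 of 8 windows and in 72.3% of all, and a GC box (GGGCGG) in 5 of 8 and in 35.7% of all. These matches are descriptions of the letters in the windows, and no binding was measured.

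Libraries held 6617716 to 12806066 counts in the crush experiment and 5594859 to 10143244 in the iKO experiment, and 3 counts of a library correspond to 0.234 to 0.453 and 0.296 to 0.536 CPM (counts scaled to a fixed total per library). CPM values below are scaled by TMM within each experiment and are not compared between experiments, since the labels name different library kits for them. SC markers (8 genes) summed to 33997 to 51697 CPM in control nerves of the crush experiment and to 2191 to 3289 CPM at 3 dpc, whereas summed macrophage markers (8 genes) were 134 to 245 CPM and 912 to 2010 CPM, and cell cycle markers (5 genes) 17.0 to 36.0 CPM and 804 to 1216 CPM. In the mutants, SC markers were 19964 to 24646 CPM in Dicer iKO against 24114 to 40301 CPM in their controls. In Dgcr8 iKO they were 13737 to 25868 CPM against 38193 to 41183 CPM. Macrophage markers were 3796 to 6733 CPM in Dicer iKO against 389 to 1156 CPM, and 2448 to 5780 CPM in Dgcr8 iKO against 376 to 448 CPM. Fibroblast markers (5 genes) were 19342 to 20640 CPM in Dicer iKO against 4575 to 14747 CPM. In Dgcr8 iKO they were 14423 to 17389 CPM against 6043 to 7896 CPM. Of the SC markers 0 of 8 fell in Dicer iKO and 3 of 8 in Dgcr8 iKO. Of the macrophage markers 5 of 8 rose in Dicer iKO, and 6 of 8 rose and 1 fell in Dgcr8 iKO. Of the fibroblast markers 3 of 5 rose in each mutant. Cell cycle markers were 81.3 to 119 CPM in Dicer iKO against 5.70 to 15.2 CPM, and 219 to 326 CPM in Dgcr8 iKO against 9.25 to 12.3 CPM, and 5 of 5 rose in each mutant. The Dicer controls differed among themselves, with 14747, 11083 and 4575 CPM of fibroblast markers. The part of these shifts in the results below was not tested, and in whole nerves fewer cells of a type and less RNA per cell cannot be told apart. Whole-gene counts include exons that the floxed alleles keep, so they do not check the deletion: Dicer1 was 82.1 ± 0.924 CPM in Dicer iKO and 89.1 ± 1.61 CPM in controls, and Dgcr8 was 44.9 ± 7.72 CPM in Dgcr8 iKO and 38.3 ± 3.51 CPM in controls (SD, n = 3).

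Per length of transcript, Cdh19, a cadherin of the crest lineage, was the highest of the 10 genes in uncrushed nerves at 79.9 ± 8.65 CPM per kb (SD, n = 3), followed by Ncam1 at 18.8 ± 1.45, L1cam at 11.6 ± 0.416 and Mcam at 7.03 ± 0.812 CPM per kb. Foxd3 (4.61 ± 0.604 CPM per kb) and Sox9 (4.59 ± 0.573) overlapped each other, as did Ednrb (2.13 ± 0.587) and Gap43 (1.59 ± 0.243). The AP-2 genes were lowest, Tfap2b at 0.392 ± 0.0721 and Tfap2a at 0.204 ± 0.0772 CPM per kb. At 3 dpc the order was different: Cdh19 stayed first at 143 ± 14.0 CPM per kb (n = 4), Mcam came second at 32.3 ± 2.95, and the ranges of Ncam1 (19.0 ± 3.37), Ednrb (15.5 ± 1.57), Foxd3 (14.2 ± 1.73) and L1cam (12.9 ± 1.43) each overlapped the next. Sox9 (6.91 ± 0.778 CPM per kb), Gap43 (4.56 ± 0.874), Tfap2a (3.19 ± 0.388) and Tfap2b (0.230 ± 0.0637) came after them without overlap between neighbours. In Dgcr8 iKO nerves Mcam (133 ± 6.33 CPM per kb, n = 3) and Cdh19 (127 ± 29.9) were highest and overlapped each other, and in Dgcr8 controls Cdh19 (174 ± 14.7) stood clear of Mcam (22.3 ± 3.28).

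**Figure D1:**
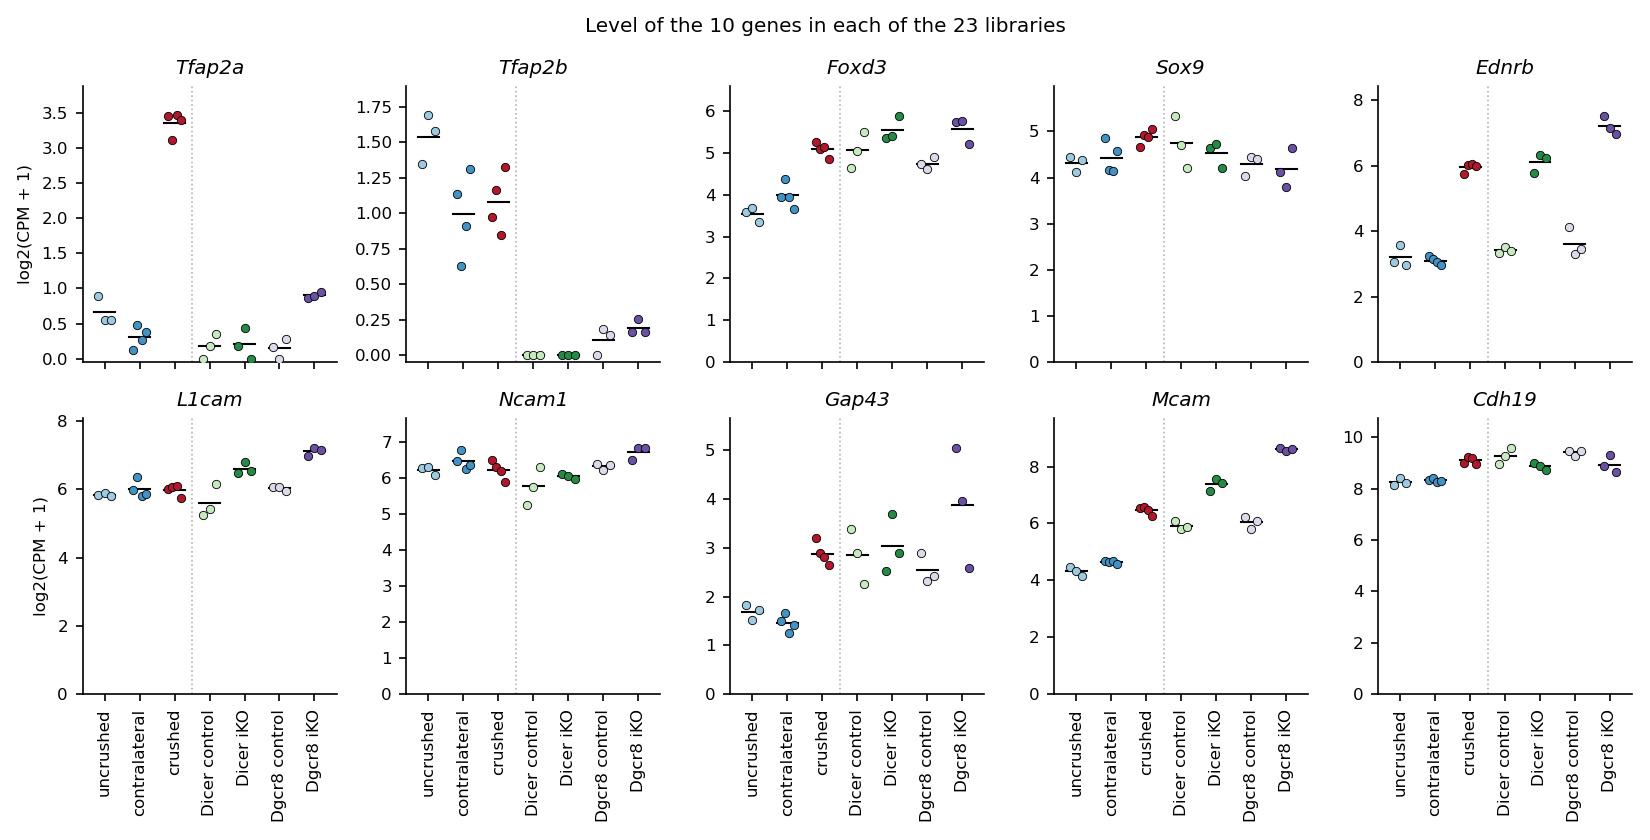
Level of each gene in each of the 23 libraries, as log2(CPM + 1) with TMM scaling within each experiment; points are libraries, black bars are group means of these log values, and a dotted line separates the crush experiment (left) from the iKO experiment (right), whose levels are not comparable. In the panels of Ednrb and Mcam every crushed or mutant library lies above every control library of its own comparison, Tfap2a is high in the 4 crushed libraries, and L1cam is higher than its controls in the mutants but not after crush.

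After crush, 5 of the 10 genes rose against uncrushed nerves (Tfap2a, Ednrb, Mcam, Foxd3 and Gap43) and 4 rose against contralateral nerves (the same without Foxd3), and 0 fell in either comparison. Calls needed a 2-fold change and a p of 0.05 or less in edgeR's quasi-likelihood test after adjustment over all genes tested, and SE is the standard error of a log2 fold change. Among all genes tested, 15.3% rose and 21.1% fell against uncrushed nerves (36.5% in either direction), and 14.6% rose and 13.6% fell against contralateral nerves (28.3% in either direction). The median log2 fold change of the 10 genes was 1.05 against uncrushed and 0.81 against contralateral nerves, where that of all genes tested was -0.03 and -0.06. All 10 passed the filter on low counts in both comparisons, which share the same 4 crushed nerves. Tfap2a passed it through those nerves alone. Requiring at least 10 counts in every sample left out Tfap2a and Tfap2b. Then 4 of 8 genes rose against uncrushed nerves, where 1747 of all 13849 did. Against contralateral nerves 3 of 8 rose, where 1695 of all 13984 did. By the study's methods each contralateral nerve is the other side of a crushed mouse. The labels do not say which numbers belong to 1 mouse, so the nerves were fitted as independent samples and p-values measure the spread between these libraries.

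In the following, gene positions are those of GRCm38. Tfap2a (ENSMUSG00000021359, chr13:40715302-40738376) encodes AP-2α, a transcription factor that specifies crest cells and is low in mature SCs. It was at 9.97, 7.65, 10.1 and 9.53 CPM in the 4 crushed nerves, at 0.854, 0.471 and 0.458 CPM in uncrushed nerves and at 0.0919, 0.389, 0.196 and 0.296 CPM in contralateral nerves. Every crushed nerve lay far above every control nerve, and the contralateral values rest on 11 counts over 4 libraries. The rise was 3.74 (± 0.27 SE, adjusted p = 1.92e-07) on the log2 scale against uncrushed nerves and 5.03 (± 0.28 SE, adjusted p = 1.14e-09) against contralateral nerves. It passed the filter on low counts through the crushed nerves, and with 1 to 10 counts in each control library, about the limit of 3 counts, these values are not exact sizes of the change. Of its 2 annotated transcripts, Tfap2a-202 averaged 28.9 expected counts over the 11 crush libraries and Tfap2a-201 averaged 9.66. Tfap2b (ENSMUSG00000025927, chr1:19208914-19238576), which encodes the related AP-2β, did not rise. It was at 0.962, 1.25, 0.799 and 1.51 CPM after crush, at 1.54, 2.24 and 1.98 CPM in uncrushed nerves and at 1.19, 0.545, 0.881 and 1.48 CPM in contralateral nerves, so that crushed nerves lay below the uncrushed ones and among the contralateral ones. The log2 differences were -0.86 (± 0.33 SE, adjusted p = 0.0365) and 0.03 (± 0.35 SE, adjusted p = 0.953), and without crushed replicate 4 the former passed the fold limit at -1.06 (adjusted p = 0.0172), as it did with the replicate number as a block (-1.06, adjusted p = 0.0309).

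Foxd3 (ENSMUSG00000067261, chr4:99656299-99658622), a forkhead factor that keeps crest cells undifferentiated, was at 37.3, 33.0, 34.5 and 27.7 CPM after crush, against 11.1, 11.9 and 9.16 CPM in uncrushed and 14.4, 19.8, 14.5 and 11.6 CPM in contralateral nerves. Crushed nerves overlapped neither control group, and the 2 control groups overlapped each other. It rose by 1.496 (± 0.13 SE, adjusted p = 7.10e-07) on the log2 scale against uncrushed nerves, and its difference from contralateral nerves was 0.98 (± 0.14 SE, adjusted p = 2.47e-05), just under the 2-fold limit. Without contralateral replicate 2 this difference was 1.17 (adjusted p = 2.08e-06) and without crushed replicate 4 it was 1.05 (adjusted p = 4.24e-05), both past the limit. It was also past the limit with the replicate number as a block (1.001, adjusted p = 6.58e-05) and with no filter on low counts (1.14, adjusted p = 4.31e-12), so its side of the limit was not settled. Sox9 (ENSMUSG00000000567, chr11:112782224-112787760), an SRY-box factor of the early crest and of cartilage, was at 24.5, 29.2, 28.3 and 32.3 CPM after crush, at 20.9, 16.4 and 19.7 CPM in uncrushed and at 27.9, 16.9, 16.7 and 22.8 CPM in contralateral nerves. The crushed nerves lay above all uncrushed ones and overlapped the contralateral ones, with log2 differences of 0.47 (adjusted p = 0.00834) and 0.31 (adjusted p = 0.0938), both under 2-fold. Chondrocyte markers (4 genes) summed to 32.5 to 46.6 CPM after crush and to 8.25 to 15.1 CPM in the control nerves. Of the 2 tested, 1 rose against each control, Col2a1 (by 1.89 and 1.91 on the log2 scale), and the part of these cells in the levels of Sox9 was not tested.

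Ednrb (ENSMUSG00000022122, chr14:103814625-103844402), the endothelin receptor type B, is a receptor coupled to G proteins that crest cells carry. It was at 52.1, 64.0, 65.8 and 63.1 CPM after crush, at 7.26, 11.1 and 6.87 CPM in uncrushed and at 8.36, 7.86, 7.24 and 6.90 CPM in contralateral nerves. Every crushed nerve was far above every control nerve. The rise was 2.75 (± 0.16 SE, adjusted p = 2.57e-08) on the log2 scale against uncrushed and 2.87 (± 0.11 SE, adjusted p = 1.63e-11) against contralateral nerves. Mcam (ENSMUSG00000032135, chr9:44134469-44142727), an immunoglobulin-type adhesion molecule that crest-derived, endothelial and mural cells carry, was at 92.8, 94.1, 88.1 and 76.5 CPM after crush, at 21.4, 19.1 and 16.9 CPM in uncrushed and at 24.9, 23.9, 25.0 and 22.95 CPM in contralateral nerves. It rose by 2.07 (± 0.11 SE, adjusted p = 9.34e-09) and by 1.72 (± 0.08 SE, adjusted p = 1.12e-10). Endothelial markers (6 genes) summed to 199 to 248 CPM after crush and 133 to 164 CPM in controls, and mural markers (8 genes) to 268 to 317 CPM and 213 to 297 CPM. Their part in the rise of Mcam was not tested.

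The other adhesion genes moved less. Cdh19 (ENSMUSG00000047216, chr1:110888326-110977584) was at 509, 601, 593 and 499 CPM after crush, at 281, 345 and 298 CPM in uncrushed and at 322, 345, 305 and 316 CPM in contralateral nerves. The crushed nerves lay above every control nerve, yet the log2 differences of 0.72 (± 0.11 SE, adjusted p = 1.13e-04) and 0.63 (± 0.08 SE, adjusted p = 6.89e-06) stayed under the 2-fold limit. L1cam (ENSMUSG00000031391, chrX:73853778-73896105), which binds axons and SCs to each other, was at 64.0, 66.8, 67.1 and 52.4 CPM after crush, at 55.9, 58.5 and 54.5 CPM in uncrushed and at 62.4, 81.7, 55.5 and 57.04 CPM in contralateral nerves. These groups overlapped, with log2 differences of 0.03 (± 0.09 SE, adjusted p = 0.787) and -0.18 (± 0.12 SE, adjusted p = 0.190). Ncam1 (ENSMUSG00000039542, chr9:49502136-49798925), its relative in the immunoglobulin family, was at 91.0, 78.5, 72.4 and 59.0 CPM after crush, and overlapped both uncrushed nerves (76.6, 78.5 and 67.8 CPM) and contralateral nerves (88.6, 111, 75.6 and 82.4 CPM). Its log2 differences were -0.11 (adjusted p = 0.465) and -0.39 (adjusted p = 0.0171).

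Gap43 (ENSMUSG00000047261, chr16:42248442-42340651), a membrane-bound protein of growth cones that immature and non-myelinating SCs also make, was at 8.14, 6.41, 5.99 and 5.22 CPM after crush, at 2.56, 1.88 and 2.29 CPM in uncrushed and at 1.84, 2.18, 1.37 and 1.67 CPM in contralateral nerves. It rose by 1.39 (± 0.23 SE, adjusted p = 1.87e-04) and by 1.71 (± 0.21 SE, adjusted p = 4.10e-06) on the log2 scale, from a low level of 14 to 30 counts per control library. Neuron markers (5 genes) summed to 54.8 to 69.4 CPM after crush and to 21.98 to 26.6 CPM in the control nerves, while of the 4 tested 1 (Tubb3) rose and 2 fell against each control. Counting every gene, crushed nerves lay wholly above uncrushed nerves in 7 of the 10 genes and wholly below in 1 (Tfap2b), where this held for 18.2% and 20.7% of all genes with at least 1 count. Against contralateral nerves 6 lay wholly above and 0 below, where this held for 16.9% and 12.2% of all genes. All genes here means the 36681 and 36853 genes with at least 1 count, beyond the 17433 and 16667 tested. Shares among the tested genes alone were not computed.

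The comparison of the 2 kinds of control nerve called 0 of 17722 genes by edgeR's quasi-likelihood test (0%), 3165 had an unadjusted p under 0.05, and DESeq2 called 31. Of the 10 genes, 9 were tested and Tfap2a was filtered out, with 1, 5, 2 and 3 counts in contralateral and 10, 4 and 3 counts in uncrushed nerves. The log2 differences ran from -0.97 for Tfap2b (adjusted p = 0.227) to 0.41 for Foxd3 (adjusted p = 0.231). Contralateral nerves lay wholly above uncrushed ones for Mcam, and wholly below for Tfap2a and Tfap2b. Of all 36953 genes with at least 1 count, 6.14% and 7.03% did so.

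**Figure D2:**
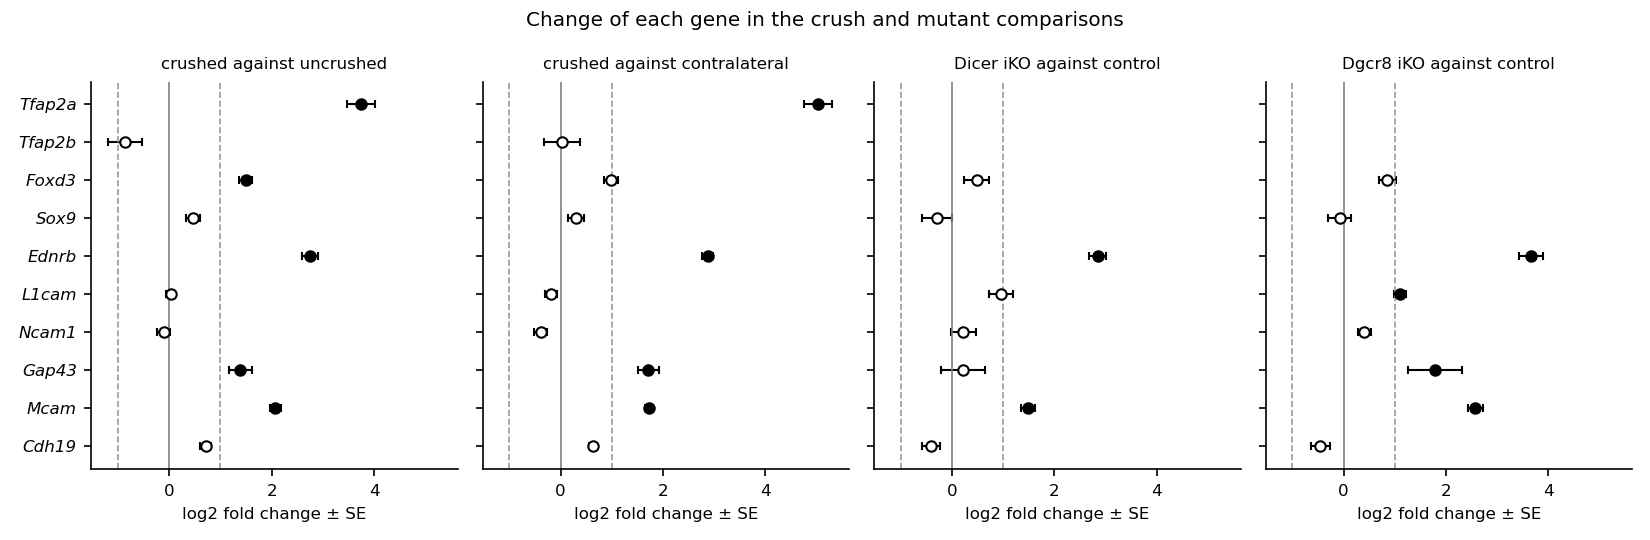
Log2 fold change of each gene in 4 comparisons, with bars of 1 standard error from edgeR's quasi-likelihood fit; filled points passed the 2-fold limit (dashed lines) with an adjusted p of at most 0.05, open points did not, and Tfap2a and Tfap2b had too few counts to be tested in the iKO experiment. Ednrb and Mcam are filled in all 4 panels, L1cam is filled only in Dgcr8 iKO, and Cdh19 lies right of 0 in the crush panels and left of 0 in the mutant panels.

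In the mutants 8 of the 10 genes were tested. Ednrb and Mcam rose in Dicer iKO nerves (2 of 8, where 7.37% of all 13045 genes tested rose and 9.01% changed), and Ednrb, Mcam, Gap43 and L1cam rose in Dgcr8 iKO nerves (4 of 8, where 13.4% of all 13252 genes rose and 20.4% changed). None of the 8 (0) fell in either mutant, where 1.64% of all genes fell in Dicer iKO and 6.99% in Dgcr8 iKO. Their median log2 fold change was 0.35 in Dicer iKO and 0.98 in Dgcr8 iKO, beside -0.01 for all genes tested in each.

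Ednrb was at 54.1, 78.8 and 74.8 CPM in Dicer iKO nerves and at 9.04, 10.4 and 9.50 CPM in their controls. In Dgcr8 iKO it was at 184, 142 and 123 CPM against 16.5, 8.85 and 9.87 CPM. Both mutants stood clear of their controls, with log2 fold changes of 2.84 (± 0.17 SE, adjusted p = 0.00109) and 3.67 (± 0.24 SE, adjusted p = 2.14e-06). Mcam was at 141, 186 and 171 CPM in Dicer iKO against 66.5, 54.6 and 57.4 CPM, and at 405, 369 and 396 CPM in Dgcr8 iKO against 73.9, 55.0 and 67.1 CPM. Its log2 fold changes were 1.48 (± 0.14 SE, adjusted p = 0.00167) and 2.57 (± 0.15 SE, adjusted p = 1.12e-06). Endothelial markers summed to 124 to 146 CPM in Dicer iKO and 145 to 209 CPM in Dgcr8 iKO against 182 to 218 CPM in the controls. Mural markers summed to 560 to 589 CPM in Dicer iKO against 535 to 620 CPM, and to 634 to 786 CPM in Dgcr8 iKO against 534 to 604 CPM without overlap, where 1 of 8 rose and 2 fell. The part of these cells in the rise of Mcam was not tested.

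L1cam was at 88.3, 111 and 91.9 CPM in Dicer iKO against 37.5, 41.7 and 70.6 CPM in controls, and at 126, 149 and 143 CPM in Dgcr8 iKO against 66.6, 66.5 and 61.2 CPM. Every mutant nerve was above its controls. The rise in Dgcr8 iKO was 1.10 (± 0.12 SE, adjusted p = 4.13e-05) on the log2 scale, and the difference in Dicer iKO was 0.96 (± 0.24 SE, adjusted p = 0.0264), just under the fold limit. Without Dicer control replicate 3, the highest control, it was 1.30 (adjusted p = 0.00125), and without Dicer iKO replicate 1 it was 1.03 (adjusted p = 0.0436). Ncam1 was at 69.1, 66.4 and 62.1 CPM in Dicer iKO among controls of 37.5, 53.1 and 79.3 CPM, and at 90.4, 115 and 114 CPM in Dgcr8 iKO above controls of 83.0, 74.8 and 82.7 CPM. Its log2 differences were 0.22 (adjusted p = 0.542) and 0.40 (adjusted p = 0.0250), the latter under 2-fold.

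Cdh19 was at 514, 475 and 428 CPM in Dicer iKO against 494, 615 and 774 CPM in controls, and at 473, 626 and 396 CPM in Dgcr8 iKO against 716, 615 and 713 CPM. The means were lower in both mutants while single nerves overlapped, with log2 differences of -0.40 (± 0.17 SE, adjusted p = 0.138) and -0.45 (± 0.19 SE, adjusted p = 0.0676). Summed SC markers were lower than in controls without overlap in Dgcr8 iKO, and overlapped their controls in Dicer iKO, as given above. Of the 8 SC markers 3 fell in Dgcr8 iKO and 0 in Dicer iKO. Their part in the values of Cdh19 was not tested.

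Gap43 was at 32.1, 14.6 and 5.01 CPM in Dgcr8 iKO against 6.47, 4.02 and 4.36 CPM in controls, so that 2 of 3 mutant nerves were above and 1 was among the controls. Its rise of 1.79 on the log2 scale (± 0.52 SE, adjusted p = 0.0163) was no longer called without Dgcr8 iKO replicate 1 (0.99, adjusted p = 0.0854), without Dgcr8 control replicate 2 (1.66, adjusted p = 0.0712) or without Dgcr8 control replicate 3 (1.68, adjusted p = 0.0622). In Dicer iKO it was at 4.77, 11.8 and 6.40 CPM against 9.47, 6.42 and 3.80 CPM, with a log2 difference of 0.21 (adjusted p = 0.751). Summed neuron markers were 88.1 to 148 CPM in Dgcr8 iKO against 54.6 to 62.6 CPM in their controls, where of the 4 tested 1 (Tubb3) rose and 3 fell. Their part in the values of Gap43 was not tested.

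Foxd3 was at 52.1, 52.9 and 36.3 CPM in Dgcr8 iKO against 25.4, 23.5 and 28.8 CPM, with no overlap and a log2 difference of 0.86 (± 0.16 SE, adjusted p = 0.00147), under 2-fold. It was 1.02 (adjusted p = 1.54e-04) without Dgcr8 iKO replicate 3. In Dicer iKO it was at 39.9, 41.2 and 58.3 CPM among controls of 23.8, 32.2 and 44.4 CPM (log2 difference 0.48, adjusted p = 0.196). Sox9 overlapped its controls in both mutants, at 24.1, 25.6 and 17.4 CPM against 39.6, 25.3 and 17.5 CPM in Dicer iKO and at 16.5, 12.9 and 24.1 CPM against 15.4, 20.6 and 20.1 CPM in Dgcr8 iKO, with log2 differences of -0.29 (adjusted p = 0.511) and -0.08 (adjusted p = 0.798). Chondrocyte markers summed to 63.4 to 81.7 CPM in Dicer iKO against 11.9 to 39.0 CPM, and to 40.5 to 101 CPM in Dgcr8 iKO against 19.6 to 32.4 CPM, and the 1 marker tested (Col2a1) rose in both.

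The AP-2 genes were near the detection limit in the iKO libraries. Tfap2a had 7, 9 and 8 counts in Dgcr8 iKO nerves and 1, 0 and 2 counts in their controls, and 1, 2 and 0 counts in Dicer iKO against 0, 1 and 2 counts. Scaled to depth, the 24 against 3 counts in Dgcr8 iKO give a ratio of 7.99 with an exact 95% interval of 2.43 to 41.5 that covers counting error only, and the exact two-sided permutation test over 3 against 3 libraries gives p = 0.10, the smallest it can give. With no filter on low counts it was called there by edgeR's quasi-likelihood test (2.76 on the log2 scale, adjusted p = 0.0221), a value that rests on these few counts. The 3 against 3 counts in Dicer iKO give a ratio of 1.13 (0.151 to 8.42). Tfap2b had 1, 2 and 1 counts in Dgcr8 iKO and 0, 1 and 1 counts in their controls, and 0 counts in all 6 Dicer iKO and Dicer control libraries, which allows at most 0.536 CPM in the shallowest library.

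The difference between the mutants was tested in 1 fit over the 12 iKO libraries. Of the 8 genes tested 0 were called (2 of 13552 genes were, 0.0148%, with 0.00738% in each direction). The largest differences (Dgcr8 effect minus Dicer effect) were those of Gap43 at 1.58 (± 0.79 SE, adjusted p = 0.405), Mcam at 1.09 (± 0.19 SE, adjusted p = 0.0997) and Ednrb at 0.83 (± 0.32 SE, adjusted p = 0.294). Without Dicer control replicate 3, the difference of Mcam was 1.118 with an adjusted p of 0.0158. Mcam was also called by DESeq2 (adjusted p = 1.20e-04) and with no filter on low counts. Counting nerves alone, Dicer iKO lay wholly above its controls for 3 of the 10 genes (18.2% of all genes did) and Dgcr8 iKO for 6 of the 10 (23.4%). None (0) lay wholly below, where 16.7% of all genes did in Dicer iKO and 21.3% in Dgcr8 iKO. These shares are over the 17122 and 18321 genes with at least 1 count, more than were tested.

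Cdh19 and L1cam had unlike values after crush and in the mutants, so the crush effect was set against each mutant effect in 1 fit over the 23 libraries and 15355 genes. This test was chosen after the values were seen, uses the adjusted p limit alone, and compares changes within each experiment, not levels between them. The experiments also differ in library kit, in age at harvest, in the time after crush or tamoxifen and, where given, in sex. Only the iKO mice received tamoxifen, and the mutant nerves had been preselected by morphology. The part of each of these in the differences below cannot be told apart. The transcript L1cam-203 held mean shares of 75.5% to 79.4% of L1cam counts in the crush groups. In the iKO experiment its mean shares were 25.6% in Dicer controls, 45.4% in Dicer iKO, 16.7% in Dgcr8 controls and 39.7% in Dgcr8 iKO. Its shares thus also differed within the iKO experiment. Dgcr8 iKO (33.5% to 44.0%) did not overlap its controls (9.23% to 25.7%), while Dicer iKO overlapped its own. These differences in the share of L1cam-203 were not tested. The 4 resulting comparisons share crushed, control and mutant libraries. The effect on Cdh19 was higher after crush by 1.117 on the log2 scale (± 0.22 SE, adjusted p = 2.48e-04) than in Dicer iKO and by 1.16 (± 0.22 SE, adjusted p = 2.03e-04) than in Dgcr8 iKO, with uncrushed nerves as the control. With contralateral nerves as the control these differences were 1.10 (adjusted p = 1.87e-04) and 1.15 (adjusted p = 1.52e-04). The effect on L1cam was lower after crush, at -0.93 (adjusted p = 0.00343) and -1.08 (adjusted p = 0.00107) with uncrushed nerves and -1.07 (adjusted p = 7.46e-04) and -1.22 (adjusted p = 2.32e-04) with contralateral nerves. Both genes passed in all 4 comparisons, with each library left out in turn and with RLE scaling.

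The effect on Ednrb after crush was lower than in Dgcr8 iKO by -0.92 (adjusted p = 0.0120) and -0.73 (adjusted p = 0.0350) on the log2 scale with uncrushed and contralateral nerves as the control. Its difference from Dicer iKO was -0.10 (adjusted p = 0.841) and 0.09 (adjusted p = 0.843). Mcam likewise differed by -0.51 (adjusted p = 0.0142) and -0.79 (adjusted p = 2.52e-04) from Dgcr8 iKO, and by 0.58 (adjusted p = 0.00544) and 0.30 (adjusted p = 0.123) from Dicer iKO. The call of Ednrb with contralateral nerves was lost without Dgcr8 control replicate 2 (adjusted p = 0.123), and also without crushed replicate 1, Dgcr8 control replicate 3 or Dgcr8 iKO replicate 1 (adjusted p at most 0.124). That of Mcam against Dgcr8 iKO with uncrushed nerves was lost without Dgcr8 control replicate 2 (adjusted p = 0.0587), and against Dicer iKO it was lost without crushed replicate 3, uncrushed replicate 2 or uncrushed replicate 3 (adjusted p = 0.0784, 0.118 and 0.148). Foxd3 was higher after crush than in Dicer iKO by 1.02 with uncrushed nerves (adjusted p = 0.00766), but not without uncrushed replicate 3 (0.75, adjusted p = 0.0652) and not with contralateral nerves (0.58, adjusted p = 0.101). Ncam1 was lower than in Dgcr8 iKO by -0.73 with contralateral nerves (adjusted p = 0.0262), a call lost without crushed replicate 4, Dgcr8 control replicate 2, Dgcr8 iKO replicate 2 or Dgcr8 iKO replicate 3 (adjusted p at most 0.0672). With uncrushed nerves it was not called (-0.51, adjusted p = 0.125), but it was with RLE scaling (-0.69, adjusted p = 0.0374). Against Dicer iKO the Ncam1 difference was not called with either control (-0.33, adjusted p = 0.351, and -0.54, adjusted p = 0.0991). With contralateral nerves it was called with RLE scaling (-0.65, adjusted p = 0.0394) and in 6 of 14 fits with a library left out. Tfap2a passed against Dicer iKO with both controls, but it had 0 to 2 counts in each Dicer library, entered the fit through the crushed libraries, and lost both calls without Dicer control replicate 3 (adjusted p = 0.303 and 0.136), so it is not read as a difference. In all, with Tfap2a counted in both comparisons with Dicer iKO, 5, 4, 3 and 5 of the 10 genes passed in the 4 comparisons (uncrushed against Dicer iKO, uncrushed against Dgcr8 iKO, contralateral against Dicer iKO, contralateral against Dgcr8 iKO), where 38.6%, 37.0%, 37.8% and 34.4% of all genes did (higher after crush in 23.6%, 22.7%, 22.2% and 20.1%, lower in 15.1%, 14.3%, 15.6% and 14.4%), so the number of genes that passed was near the background and only the individual differences are described.

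**Figure D3:**
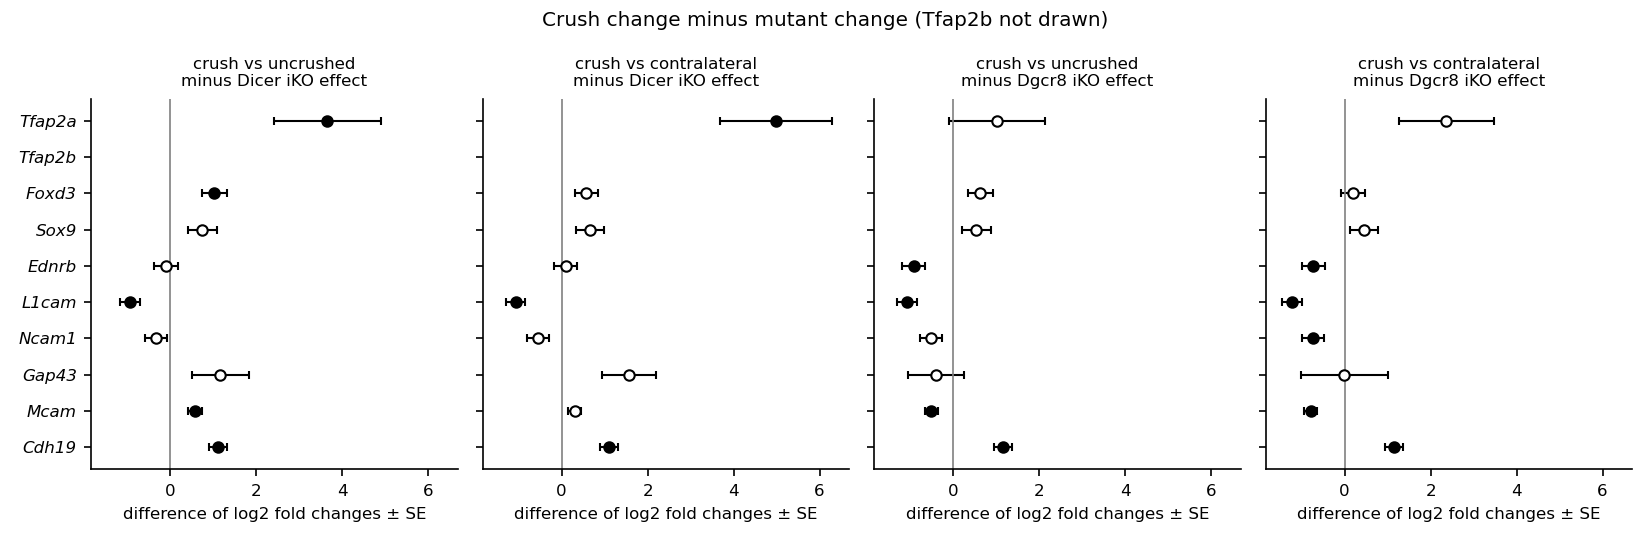
Difference between the crush effect and each mutant effect for 9 genes (log2 scale, bars of 1 standard error, edgeR's quasi-likelihood fit over 23 libraries); filled points have an adjusted p of at most 0.05, and Tfap2b is left out because it had 0 counts in the Dicer libraries. Cdh19 lies between 1.10 and 1.16 and L1cam between -1.22 and -0.93 in all 4 panels.

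Transcripts of 1 gene were compared by their share of its expected counts. Of the 10 genes, Ednrb, L1cam, Mcam, Ncam1 and Cdh19 had 2 or more transcripts that averaged at least 10 counts in the crush libraries, and the same without Cdh19 in the iKO libraries. Ncam1-201, annotated with a coding length of 725 codons, ends upstream of Ncam1-202 (849 codons) and Ncam1-204 (848 codons), whose coding parts are longer. Its share was 23.2%, 27.0%, 29.9% and 27.2% after crush, 40.5%, 42.0% and 54.7% in uncrushed and 44.4%, 44.6%, 38.7% and 48.4% in contralateral nerves. Every crushed nerve thus lay below every control nerve although the gene's total level overlapped. The mean shares were 26.8% ± 2.77 (SD, n = 4), 45.7% ± 7.78 (n = 3) and 44.0% ± 3.996 (n = 4). The exact two-sided permutation test gave p = 0.0571 against uncrushed and p = 0.0286 against contralateral nerves, the smallest possible with these numbers, and 0.329 for both after adjustment over 23 tests. Ncam1-204 took a share of 37.5% to 42.1% after crush and 25.2% to 32.5% in the control nerves. In the iKO libraries Ncam1-201 had 33.0% to 49.3% in Dicer iKO against 41.4% to 52.9%, and 48.0% to 51.5% in Dgcr8 iKO against 42.3% to 59.2%, with overlap in both.

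**Figure D4:**
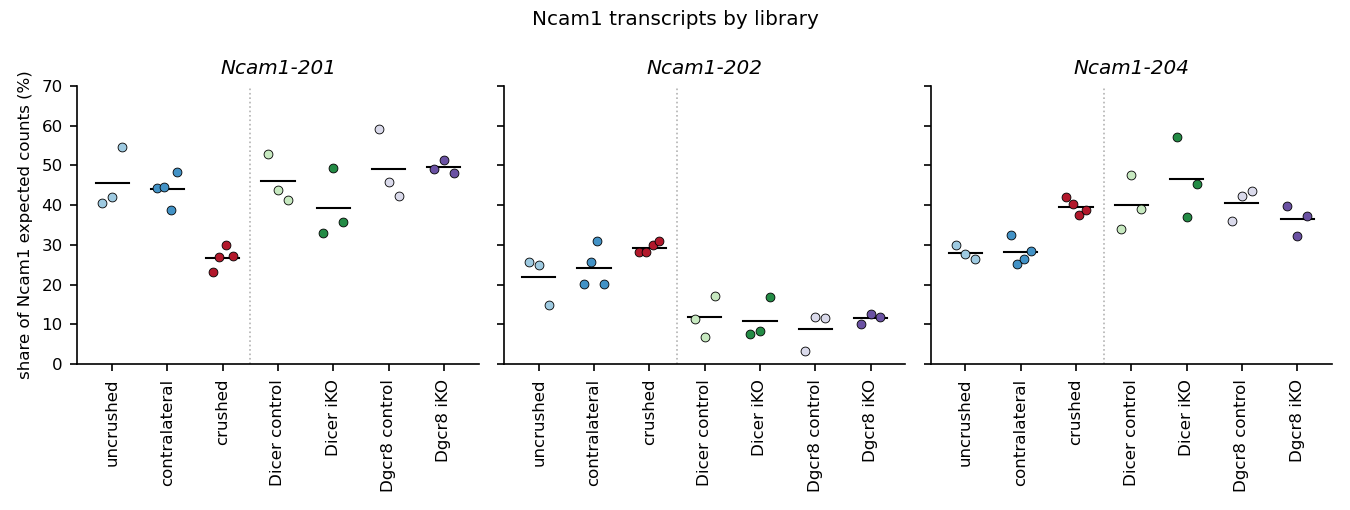
Share of the Ncam1 expected counts (%) held by Ncam1-201, Ncam1-202 and Ncam1-204 in each library; points are libraries, bars are group means, and a dotted line separates the 2 experiments. The 4 crushed nerves (23.2% to 29.9%) lie below all 7 control nerves (38.7% to 54.7%) for Ncam1-201.

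Cdh19-201 held 98.5% ± 0.190 of the Cdh19 counts after crush and 97.8% ± 0.401 and 97.7% ± 0.321 in uncrushed and contralateral nerves, without overlap (exact permutation p = 0.0571 and 0.0286, adjusted 0.329). For Ednrb the split between 2 transcripts with equal coding lengths (442 codons each) varied widely within groups, with Ednrb-202 at 33.3% ± 57.7 in uncrushed nerves. None of the tests of shares gave an adjusted p at or under 0.05, and none could with these numbers of libraries. The smallest possible permutation p was 0.10 in the iKO comparisons, 0.0571 against uncrushed nerves and 0.0286 for crushed against contralateral nerves, before adjustment over 23 tests. No absence of a change is therefore read from them.

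Related genes were read from 4 lists. Of SC precursor and immature SC genes (12 listed), 7 of 11 tested rose and 1 fell after crush against each control, 5 of 12 rose in Dicer iKO and 8 of 12 rose in Dgcr8 iKO, with 0 falling in the mutants. The shares of all genes tested that rose were 15.3% and 14.6% after crush (against uncrushed and contralateral nerves), 7.37% in Dicer iKO and 13.4% in Dgcr8 iKO, and those that fell were 21.1%, 13.6%, 1.64% and 6.99%. Ngfr, the low-affinity neurotrophin receptor of immature and repair SCs, rose most after crush, by 5.05 on the log2 scale against uncrushed (adjusted p = 2.84e-10) and by 4.66 against contralateral nerves (adjusted p = 1.87e-12). Id2, an inhibitor of helix-loop-helix factors, rose by 2.65 (adjusted p = 0.00111) in Dicer iKO and by 3.21 (adjusted p = 2.39e-06) in Dgcr8 iKO. Gfap, the filament protein of immature and non-myelinating SCs, rose by 2.72 (adjusted p = 0.00333) in Dicer iKO, while Jun rose by 2.95 (adjusted p = 3.87e-09) after crush against uncrushed nerves and Sox2 by 2.73 (adjusted p = 2.53e-09) against contralateral nerves. Dhh, a ligand made by SCs, fell by 1.83 on the log2 scale (adjusted p = 6.71e-09) against contralateral nerves.

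Of the other neural crest transcription factors (16 listed), 3 of 13 tested rose and 3 fell against uncrushed nerves, 4 of 12 rose and 2 fell against contralateral nerves, and 1 of 11 and 3 of 11 rose in Dicer and Dgcr8 iKO with 0 falling, small counts from which no difference from the shares of all genes is read. Mycn fell by 2.64 (adjusted p = 7.55e-05) and by 3.42 (adjusted p = 2.72e-08) on the log2 scale after crush, and Pax7 fell by 1.94 against uncrushed nerves from a low level. Among AP-2 and endothelin partners (8 listed), 1 of 4 tested rose against uncrushed and 0 of 3 against contralateral nerves, 0 of 4 changed in Dicer iKO, and 2 of 4 rose and 1 fell in Dgcr8 iKO. The gene that fell was Edn1, which encodes a ligand of the endothelin receptors, by 2.01 on the log2 scale (adjusted p = 4.41e-04), in the same nerves in which Ednrb rose. Of 12 adhesion and growth-cone relatives, 6 rose and 3 fell against uncrushed nerves, and 5 rose and 3 fell against contralateral nerves. In Dicer iKO 3 rose and 1 fell, and in Dgcr8 iKO 5 rose and 2 fell. The shares of all genes given above apply here and to the AP-2 and endothelin partners. No difference from them is read. Basp1, a growth-cone protein related to Gap43, rose by 3.19 (adjusted p = 7.62e-08) and 3.06 (adjusted p = 1.68e-09) after crush and by 3.23 (adjusted p = 1.23e-04) in Dgcr8 iKO. Cdh1, E-cadherin of myelinating SCs, fell by 2.60 (adjusted p = 2.19e-08) and by 2.80 (adjusted p = 3.56e-10) after crush, and Cdh6 rose by 2.14 (adjusted p = 0.00840) and 3.12 (adjusted p = 7.24e-06) in the Dicer and Dgcr8 mutants. Stmn2 fell by 1.48 (adjusted p = 0.00372) and by 1.76 (adjusted p = 1.84e-04) in Dicer and Dgcr8 iKO, and Nfasc fell by 1.57 (adjusted p = 1.62e-04) in Dgcr8 iKO.

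Among 12643 genes tested in all crush and mutant comparisons, the genes whose levels ran most like each of the 10 were ranked by the lower of 2 Pearson correlations, over the 11 crush libraries and over the 12 iKO libraries, on log2(CPM + 1). These correlations are descriptions across libraries that share groups. Ednrb was most like Melk (0.984 as the lower r), Nkd2 (0.984) and Serinc5 (0.983), and Mcam was most like Syt4 (0.989), Myo10 (0.986) and Hmga2 (0.984). For Foxd3 the closest were Spata13 (0.939), Cdc42se1 (0.907) and Angptl2 (0.906), and for Cdh19 they were Txnip (0.897), Zfp639 (0.887) and Exoc6 (0.879). Gap43 ran with Asns (0.888), Plpp5 (0.873) and Rabif (0.836), and Sox9 with Tshz3 (0.836), Gjb5 (0.818) and Afdn (0.790). L1cam and Ncam1 were each among the 3 genes most like the other (0.786), with Acp2 (0.810) and Gnptab (0.766) beside L1cam and Col12a1 (0.830) and Lama5 (0.789) beside Ncam1.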

How the data were processed

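RNA sequencing libraries of mouse sciatic nerves (11 in the crush and 12 in the iKO experiment) were used. According to the methods and labels, the authors used Trimmomatic for trimming, STAR for alignment to GRCm38 and RSEM to estimate the abundance of Ensembl transcripts. Per the labels, crush libraries were made with a SMARTer pico-input kit and iKO libraries with TruSeq and Ribo Zero, while the methods describe the latter only. The deposited expected counts per transcript were summed per gene and rounded. The deposited TPM values, scaled by the authors to transcript length and library size, were used only for alternative transcript shares. Groups came from the labels; 1 uncrushed library has different numbers in its title and description, and the title was used. Names and positions came from GENCODE M21, matched by gene ID, and promoters from RefSeq (GRCm38.p6). The counting strand and the handling of overlapping genes are not given in the sources used here: L1cam overlaps Arhgap4 and Avpr2, and Tfap2a, Ncam1 and Mcam overlap antisense genes. On their own strand, Foxd3 overlaps Gm23366, Gap43 overlaps Mir6540, and Cdh19 overlaps Gm36944 and Gm38255.

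Each comparison used its own 2 groups, filterByExpr (minimum count 10), TMM scaling and the quasi-likelihood test of edgeR, whose p-values were adjusted over all genes tested by Benjamini-Hochberg (R 4.3.3, edgeR 4.0.16, DESeq2 1.42.0), and the limits of 2-fold and adjusted p of 0.05 that the authors used. Standard errors are the log2 fold change over the square root of F. Transcript shares were tested by exact permutation (scipy). The tests were tested on simulated data. Total counts per library were 5594859 to 12806066, and limits of 3 counts cover counting error only. Over 27 replicate pairs, chi-square per degree of freedom was 4.36 to 42.4, so none was a copy.

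The 10 genes, the gene lists and the naming rule (all 10 genes, up to 3 called related genes per direction and comparison by size, Dicer1 and Dgcr8, and the 3 most alike genes) were chosen with earlier results of these data known. Alternatives were RLE scaling, no filter, at least 10 counts in every sample, DESeq2, all groups in 1 fit, the replicate number as a block, the adjusted p alone, TPM shares and each library left out.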

Additional observations from a re-analysis of the deposited data

How the results depend on the processing

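With the adjusted p alone, 8 of the 10 genes were called against uncrushed nerves, where 11712 of all 17433 genes were. Against contralateral nerves 7 of the 10 were called, where 11069 of 16667 were. In Dicer iKO 3 of the 8 tested were called, where 2764 of 13045 were. In Dgcr8 iKO 6 of 8 were called, where 5898 of 13252 were. No difference from the shares of all genes is read from these counts. With each library left out in turn, 5 to 6 and 4 to 5 of the 10 genes were called after crush. Of all genes, 5898 to 6915 (of 17249 to 18346 tested) and 4758 to 5056 (of 16867 to 17189) were then called. In Dicer iKO 2 to 3 of the 8 were called, and 572 to 1411 of all 13226 to 13291 genes. In Dgcr8 iKO 3 to 5 of the 8 were called, and 2563 to 2959 of all 13426 to 13508 genes.

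Between contralateral and uncrushed nerves 141 genes were called with no filter, 31 by DESeq2, 1 with all groups in 1 fit and 0 to 95 with a library left out. Between the mutants, 1 of the 10 genes (Mcam) was called with no filter (adjusted p = 0.0398), by DESeq2 (1.20e-04) and without Dicer control replicate 3, so 0 to 1 with a library left out. Of all genes, 1 was called there with RLE scaling, 20 with no filter, 0 with at least 10 counts in every sample, 235 by DESeq2 and 0 to 401 with a library left out, 401 being without Dicer control replicate 3. Of the 10 genes 3 to 6 were called for crush against uncrushed minus Dicer iKO with a library left out, and 3 to 5 in the other 3 crush-minus-mutant comparisons. In these 4 comparisons RLE scaling moved the median of all genes by -0.16, -0.17, -0.11 and -0.12 on the log2 scale (uncrushed with Dicer and Dgcr8 iKO, then contralateral), and the cause of none of these changes was tested.

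Same-numbered libraries did not deviate together in every pair of any comparison (lowest r per comparison -0.20 to -0.12), so pairing by number was not shown. The replicate block gave 6 called genes between contralateral and uncrushed nerves, 640 in Dicer iKO and 0 between the mutants. With it, Foxd3 passed against contralateral nerves (1.001) and Tfap2b against uncrushed nerves (-1.06).

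Values that changed sign were small and none was called. L1cam against uncrushed nerves was -0.074 with all groups in 1 fit, -0.089 with at least 10 counts in every sample and from -0.0079 to 0.086 with a library left out, and Ncam1 was 0.12 with no filter. Cdh19 between contralateral and uncrushed nerves was 0.0051 by DESeq2, 0.0048 with RLE scaling, 0.040 with no filter and from -0.062 to 0.080 with a library left out. With a library left out, Tfap2b against contralateral nerves ran from -0.19 to 0.25. Between contralateral and uncrushed nerves Sox9 ran from -0.10 to 0.18, Ednrb from -0.32 to 0.029 and L1cam from -0.013 to 0.17. In Dicer iKO Sox9 ran from -0.53 to 0.068, Ncam1 from -0.0017 to 0.54 and Gap43 from -0.21 to 0.57, and in Dgcr8 iKO Sox9 ran from -0.35 to 0.12. Between the mutants Sox9 ran from -0.14 to 0.46, L1cam from -0.19 to 0.31, Ncam1 from -0.14 to 0.41 and Cdh19 from -0.24 to 0.10. The Ncam1-201 share in Dgcr8 iKO was -0.51 points from control with TPM. Over the values of single genes, 929 kept their direction and side of the limits, 21 newly passed, 20 no longer passed and 31 changed sign. Depth limits Tfap2a and Tfap2b most, with 0 to 9 counts per iKO library.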
